A study of Mus musculus with 47 samples.

Results

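The NKmature group held 2 of the 47 arrays of this series on mouse blood cell development, and it was set against the other 16 groups, which held 45 arrays. Samples were assigned to a group by the opening word of their titles. The comparison asked which transcripts lay higher and which lay lower in NKmature cells than in every other population, and than in the equal-weight mean of those populations. Transcripts of neutrophil granules are given apart from the rest.

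The labels give bone marrow of adult C57Bl6 mice for every array, also for ETP and IgM+SP, whose names could stand for cells of other organs, with no other allele, treatment or age in the labels, and RNA of 2000 purified cells was amplified and hybridised for each array. The groups are named NKmature (2 arrays), CD4, CLP, GM, IgM+SP, LTHSC, ProB and STHSC (2 arrays each), CFUE, ETP, GMP, MkP, PreCFUE and ProE (3 arrays each), MkE and PreB (4 arrays each) and LMPP (5 arrays). In common use the names stand for mature natural killer cells, CD4 T cells, B cells and their precursors, early T progenitors, stem cells, and progenitors of the myeloid, megakaryocytic and erythroid lineages. The labels spell out none of these names and give no sorting markers. Arrays of a group carry the words biological replicate, with no statement of which or how many animals each came from.

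Natural killer cells are lymphocytes that kill infected or transformed cells without a rearranged antigen receptor. They weigh signals from activating and inhibitory surface receptors, many of them encoded in the natural killer gene complex on mouse chromosome 6, and release perforin and granzymes from cytotoxic granules. In bone marrow they arise from lymphoid progenitors under the control of Id2, Nfil3, the T-box factors Tbx21 (T-bet) and Eomes, and the cytokine interleukin 15.

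Values below are log2 intensities of the brightest probe set of a gene, and a difference is the NKmature mean minus the equal-weight mean of the other 16 group means, ± its standard error, unless another group is named. Tests used limma's moderated statistics in a fit of 17 group means to all 47 arrays, with Benjamini-Hochberg adjusted p over 13949 genes. A gene was called at an adjusted p under 0.05 and a difference of at least 2-fold. It was counted as highest, or lowest, in NKmature only where it was called against each of the 16 groups and both NKmature arrays lay beyond all 45 others. For genes named as highest or lowest, passing against single groups and the lack of overlap therefore follow from this rule. Their values there give the size of a gap and are not a further test. The labels name no batch, and the p-values measure the spread between arrays of a group, which may be technical.

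The NKmature arrays correlated with each other at 0.993, within the range of 0.928 to 0.997 found inside the 17 groups, and their median intensities were 14.7 and 14.6, within the 13.8 to 16.9 of the series. Other features of the series touch the results. The plasmacytoid dendritic list read 5.59 and 5.52 on the NKmature arrays, against 10.25 and 10.75 on the ProB arrays, which carried NK transcripts as well. PreB replicates 3 and 4 had higher levels of the NK receptors list (3.90, 3.96, 5.24 and 5.36 on PreB replicates 1 to 4) and of the late neutrophil granule list (3.82, 4.54, 6.95 and 7.46). The female transcript Xist (8.44 and 8.81) and the Y-linked transcript Eif2s3y (8.79 and 8.53) both appeared on both NKmature arrays, as they did on 5 other arrays (ETP replicates 2 and 3 and LMPP replicates 3 to 5).

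The markers of NK cells were at their brightest on the arrays so labelled. These markers were chosen with earlier results of these data known, so their levels and p-values are no independent check of the label. Klre1, a lectin-like receptor of NK cells, read 11.21 and 11.26 on the NKmature arrays, against values from 2.76 to 8.85 with a median of 3.13 on the 45 others. Tbx21, the T-box factor of terminal NK maturation, read 9.92 and 10.14, against values from 2.29 to 8.22 with a median of 2.78. Both NKmature arrays stood above every other array for these genes, and the ProB arrays came next (8.85 and 8.54 for Klre1, 8.22 and 7.42 for Tbx21). Eomes, the T-box factor required for mature NK cells, read 9.72 and 9.82 on the NKmature arrays, against 9.14 and 7.80 on the ProB arrays and at most 5.15 as the mean of any other group. The chemokine Ccl5 read 12.84 and 12.97 in NKmature, against 12.42 and 11.86 in ProB and a mean of 8.50 in CD4, the next group. Against the equal-weight mean the differences were 7.78 ± 0.71 for Ccl5, 7.62 ± 0.40 for Klre1, 6.74 ± 0.19 for Tbx21 and 5.55 ± 0.37 for Eomes, with adjusted p of 1.4e-11 to 3.9e-26 by limma with Benjamini-Hochberg adjustment. Against ProB alone, Klre1 (adjusted p = 0.00037), Tbx21 (adjusted p = 2.4e-08) and Eomes (adjusted p = 0.0499) were called higher in NKmature, and Ccl5 (adjusted p = 0.6) was not.

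Against the equal-weight mean, 1869 genes were called higher in NKmature (13.4% of 13949) and 1128 lower (8.09%), and the median difference of all genes tested was -0.04. After a second quantile normalization the counts were 1483 higher and 1407 lower. In NKmature 198 genes were highest of all groups (1.42%) and 50 were lowest (0.358%). Of the 198, 196 were outside the late neutrophil granule list. In 30 of the 198 every other group mean lay under the filter level of 3.889, so these genes were tested through NKmature alone, and in 16 of the 50 the NKmature mean lay under it, so the sizes of these differences rest on dim values. With CD4 and IgM+SP left out the counts were 300 highest and 79 lowest, and with no 2-fold minimum 342 and 77. The lowest genes numbered 33 with a floor of 16 and 19 with the mean of all probe sets of a gene. With the Xist and Eif2s3y class of the arrays as a block 221 were highest and 60 lowest, of which 130 and 35 were shared. Both NKmature arrays are of the same class, so the block's correction of them comes from replicates of ETP and LMPP alone. The same rule applied to each other group gave 1 to 175 highest genes, with CD4 (175) and ProB (163) next after NKmature, and 0 to 314 lowest genes, the last in CLP. Among the 198, the group with the next highest mean was ProB for 65 genes, CD4 for 35, GMP for 18 and IgM+SP for 14.

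**Figure D1:**
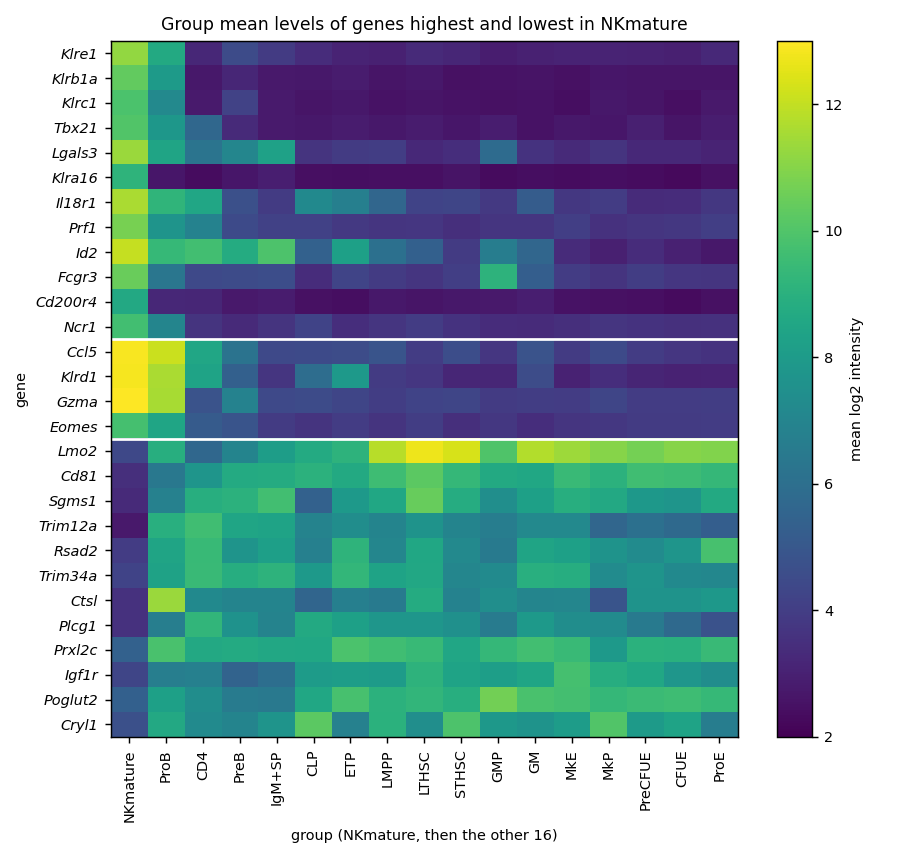
Mean log2 intensity (colour) of genes (rows) in NKmature, at the left, and the other 16 groups (columns). The upper block shows the 12 genes with the largest differences among those highest in NKmature, the middle block Ccl5, Klrd1, Gzma and Eomes, and the lower block the 12 with the largest differences among those lowest in NKmature. ProB is the next brightest column for most of the upper block, and Klra16 and Cd200r4 are bright in NKmature alone.

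Receptors led the highest genes. Klrb1a, a lectin-like receptor of the Nkrp1 family, read 10.23 and 10.45 in NKmature, against values from 2.33 to 8.72 with a median of 2.65 on the other arrays. Klrc1 (NKG2A), which pairs with Klrd1 (CD94) to form an inhibitory receptor for a nonclassical class I molecule, read 9.88 and 9.92, against values from 2.31 to 7.91 with a median of 2.60. Ncr1 (NKp46), an activating receptor that defines NK cells across mammals, read 9.61 and 9.69, against values from 3.09 to 7.39 with a median of 3.56. By the rule for highest genes, no other array reached either NKmature array for any of the 3. The differences were 7.33 ± 0.22, 6.91 ± 0.45 and 5.83 ± 0.21, and the ProB means lay 2.33, 2.73 and 2.65 below the NKmature means (limma, Benjamini-Hochberg adjusted p = 1.1e-07, 0.00079 and 2.8e-09). Fcgr3 (CD16), the low-affinity antibody receptor that triggers killing of coated cells, read 10.46 and 10.55, and here the next group was GMP at 9.12, with ProB at 6.33. Cd200r4, an activating relative of the CD200 receptor, read 8.49 and 8.77, and no other array passed 3.41.

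In the NK receptors list, 20 of 23 tested members were called higher, 0 lower and 10 were highest of all groups. Of all genes tested 13.4% were called higher, 8.09% lower and 1.42% highest. Klrc2, Klrc3, Klra1, Klra2 and Cd226 lay under the filter level in every group on their brightest probe sets. They were not tested and are outside these counts, whereas a member could pass the filter through NKmature alone. The median difference of the 23 was 4.96, against -0.04 over all genes. The mean level of the list was 8.45 and 8.47 on the NKmature arrays, 7.49 and 7.32 on the ProB arrays and 4.99 and 4.78 on the CD4 arrays. Klrd1 had a difference of 8.01 ± 0.53, but its NKmature values of 12.85 and 12.82 lay only 1.24 ± 0.74 above ProB (adjusted p = 0.21 by limma with Benjamini-Hochberg adjustment). The activating receptor Klrk1 (NKG2D) read 9.11 and 9.23, against 8.23 and 7.90 in ProB, and was called higher in NKmature by 1.11 ± 0.30 (adjusted p = 0.0034). Crtam (5.48), a receptor for nectin-like ligands, and Cd160 (3.42), a receptor shared with cytotoxic T cells, were also highest in NKmature. Cd2 (5.12), Cd244a (5.06, the SLAM family receptor 2B4), Klrb1f (4.96), Cd7 (4.40), Slamf7 (3.76) and Slamf6 (3.58) were called higher than the mean but were not highest. Cd244a stood only 0.58 above ETP (adjusted p = 0.4).

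Klrg1, an inhibitory receptor of mature NK cells and effector T cells, read 8.08 and 7.90, against 7.83 and 7.18 in CD4. It was called 3.94 above the mean, and the CD4 values did not reach the NKmature ones, although the difference from CD4 did not pass (adjusted p = 0.32, limma). Cd96, which binds nectins and restrains NK cells, read 8.31 and 8.44 in NKmature, against 10.21 and 10.37 in CD4. It was higher than the mean (2.41) and lower than in CD4 (-1.92 ± 0.41, adjusted p = 0.00035, limma). Lag3, which was not called, read 4.76 and 4.58, against 6.03 and 7.37 in ProB. Klrb1b was not called either (2.94 and 2.83, difference -0.13).

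The Klra (Ly49) genes, which encode receptors for classical class I molecules and form a cluster of near-identical copies, were split by probe set. Klra16 read 9.28 and 9.04 in NKmature on its brighter probe set, and no other array passed 3.10. One Klra7 probe set (1451664_x_at) read 6.94 and 7.50 in NKmature, against at most 3.54 elsewhere. The other Klra7 probe set (1426171_x_at) read 2.90 and 2.87 in NKmature, against 9.21 and 8.53 in ProB. Klra8, the activating receptor Ly49H of the C57BL/6 strain, read 3.59 and 3.32 in NKmature, against 11.21 and 9.94 in ProB. For Klra8 and for that Klra7 probe set both ProB arrays lay far above both NKmature arrays, while Klra17 was bright in both groups (8.58 and 8.73 in NKmature, 8.37 and 9.46 in ProB). Klra5 read 5.97 and 6.37 in NKmature and 4.97 and 4.58 in ProB and was highest in NKmature. Klra8 and the Klra7 probe sets were singled out after their values had been seen. The probe sets may read several Klra copies, and which copy each reports was not tested. The labels give the strain C57Bl6 for every array.

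**Figure D2:**
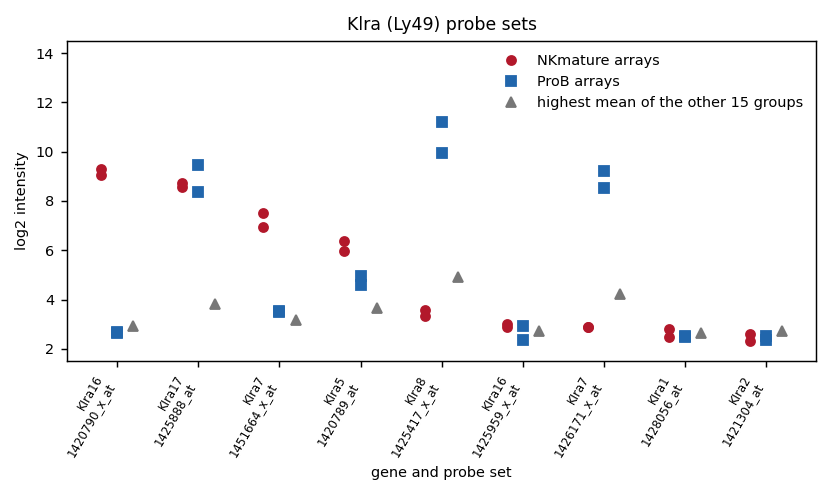
Log2 intensity of 9 Klra (Ly49) probe sets on the NKmature arrays (red circles), the ProB arrays (blue squares) and as the highest mean of the other 15 groups (grey triangles). Klra16 1420790_x_at and Klra7 1451664_x_at are bright in NKmature alone, Klra8 1425417_x_at and Klra7 1426171_x_at in ProB alone, and Klra17 in both.

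Promoter windows from RefSeq (build GRCm38.p6, 250 bases before to 50 after a start) were read for the genes highest in NKmature. The word TGTGGTT, recognised by Runx factors, was searched on both strands and lay in a window of 17 of the 159 highest genes with a window (10.7%), against 4.78% of the 11211 tested genes with one and 6.09% of all 27025 genes of the table. Among the lowest genes 3 of 41 held it (7.32%). Windows of 5 of the 17 are printed, chosen for the roles of these genes in NK cells, so they do not stand for the rest. The 17 also include 4930429F24Rik, Bak1, Jazf1, Lax1, Mxra7, Nod1, Osbpl5, Prdm10 and Slco4c1. The word, or its reverse complement AACCACA, is in capitals. The windows are those of Ncr1 (chr7:4337465-4337764, plus strand), Klre1 (chr6:129577963-129578262, plus strand), Klrk1 (chr6:129623815-129624114, minus strand), Gzmb (chr14:56262285-56262584, minus strand) and Xcl1 (chr1:164935473-164935772, minus strand).
Ncr1: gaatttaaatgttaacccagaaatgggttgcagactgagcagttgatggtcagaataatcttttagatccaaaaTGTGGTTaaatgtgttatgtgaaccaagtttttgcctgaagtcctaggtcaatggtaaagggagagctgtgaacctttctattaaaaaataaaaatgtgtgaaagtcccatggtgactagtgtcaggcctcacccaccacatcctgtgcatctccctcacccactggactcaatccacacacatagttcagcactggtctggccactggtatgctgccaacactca
Klre1: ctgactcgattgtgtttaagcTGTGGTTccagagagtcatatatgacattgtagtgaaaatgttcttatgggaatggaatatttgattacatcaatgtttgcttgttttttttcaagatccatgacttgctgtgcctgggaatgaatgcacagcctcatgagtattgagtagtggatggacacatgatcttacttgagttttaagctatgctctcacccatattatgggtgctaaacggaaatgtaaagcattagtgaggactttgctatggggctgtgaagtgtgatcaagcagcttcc
Klrk1: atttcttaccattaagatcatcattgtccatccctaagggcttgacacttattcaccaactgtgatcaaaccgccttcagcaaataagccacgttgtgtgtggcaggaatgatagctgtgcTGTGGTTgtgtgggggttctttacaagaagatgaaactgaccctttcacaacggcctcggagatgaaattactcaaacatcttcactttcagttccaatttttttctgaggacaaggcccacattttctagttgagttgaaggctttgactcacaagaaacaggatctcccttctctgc
Gzmb: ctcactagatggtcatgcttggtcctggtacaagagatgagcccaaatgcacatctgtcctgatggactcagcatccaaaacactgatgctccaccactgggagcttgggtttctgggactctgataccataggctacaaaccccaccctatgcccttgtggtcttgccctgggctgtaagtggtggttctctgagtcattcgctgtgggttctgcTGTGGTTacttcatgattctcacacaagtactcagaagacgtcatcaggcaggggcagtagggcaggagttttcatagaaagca
Xcl1: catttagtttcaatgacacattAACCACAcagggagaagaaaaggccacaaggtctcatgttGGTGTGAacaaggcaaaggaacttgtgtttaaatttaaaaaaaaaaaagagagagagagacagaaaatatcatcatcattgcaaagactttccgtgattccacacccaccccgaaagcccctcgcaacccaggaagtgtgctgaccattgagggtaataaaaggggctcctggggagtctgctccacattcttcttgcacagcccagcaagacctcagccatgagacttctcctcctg
The word began 176 bases before the start in Ncr1, 229 in Klre1, 129 in Klrk1, 34 in Gzmb and 228 in Xcl1. In Xcl1 the capitals also mark the T-box word TCACACC as its reverse complement GGTGTGA, beginning 188 bases before the start. The T-box words TCACACC and AGGTGTGA, searched on both strands (the reverse complement of AGGTGTGA holds TCACACC), lay in 8 of the 159 genes (5.03%), against 4.34% of tested genes. The Ets word CCGGAAGT lay in 10 (6.29%), against 8.01%. A second window of Klre1 lacked the Runx word, and windows of Cd160, Il18r1 and Il18rap, not printed, also held it. The windows of Tbx21, Eomes, Prf1, Id2, Klrb1a, Klrc1, Fcgr3, Lgals3 and Cd200r4 held none of these words. A word in a window is a description of the sequence and not a measured site.

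Behind the receptors, several signalling adaptors were brighter than average in NKmature without being particular to it. Tyrobp (DAP12), the adaptor of activating Klra and NKG2D complexes, read 12.18 and 12.20 in NKmature, against 12.71 and 12.87 in ProB. Fcer1g, the adaptor of Fcgr3 and Ncr1, read 10.02 and 9.99, against 10.12 and 10.54. Cd247 (CD3 zeta) read 8.37 and 8.48, against 10.40 and 10.77 in CD4. Tyrobp (5.20), Fcer1g (3.96) and Cd247 (3.797) were each called above the mean, yet ProB lay above NKmature for Tyrobp and Fcer1g on average and CD4 for Cd247. Of the adaptor and signalling list, 13 of 23 members were called higher and 1 lower (median 1.65), against 13.4% and 8.09% of all genes. Its list level was 8.25 and 8.30 in NKmature, against 8.21 and 8.05 in CD4.

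The adaptors highest in NKmature were Sh2d2a (9.72 and 9.70, against 8.38 and 8.40 in CD4), an SH2 domain adaptor of T cells, and Dok2 (9.04 and 9.26, against 7.09 and 7.59), a docking protein that dampens kinase signals. Sh2d1a (SAP), the SLAM receptor adaptor, was 4.77 above the mean, with NKmature at 7.94 and CD4 at 8.44. The Src family kinase Fyn (3.17), the phosphatase Ptpn22 (3.86), the kinase Txk (3.43), Hcst (2.57, DAP10 of the NKG2D complex), Prkcq (2.12), Vav1 (1.65) and Grap2 (1.25) were also called higher. Zap70, which signals from Cd247, was not called on its brightest probe set (6.31 and 6.29, difference 0.05 ± 0.16), whereas its other probe sets read 8.44 and 8.25 and 7.55 and 7.81 in NKmature and differed by 4.07 and 3.64. Syk (0.70), Lat (0.73), Plcg2 (0.93), Sla2 (0.97), Ptpn6 (0.35), Inpp5d (0.19), Vav3 (0.06) and Lat2 (-0.16) were not called. Plcg1, the phospholipase that couples Lat to calcium in T cells, was lowest of all groups in NKmature (4.02 and 3.13, against 9.38 and 9.09 in CD4 and 4.78 in ProE, the next lowest). Another of its probe sets differed by -0.24.

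The killing machinery followed the receptors. Perforin, Prf1, read 10.53 and 10.92 in NKmature, against values from 3.28 to 8.03 with a median of 3.802 on the other arrays. Granzyme A, Gzma, read 13.10 and 13.15, against 11.52 and 11.58 in ProB and 4.97 and 4.67 in CD4. Granzyme B, Gzmb, read 8.28 and 8.55, against 6.67 and 7.26 in ProB and 4.66 and 3.79 in CD4. Both NKmature arrays lay above all others for each of these, but only Prf1 (3.05 ± 0.35 above ProB, adjusted p = 7.0e-09 by limma with Benjamini-Hochberg adjustment) and Gzmb (1.45 ± 0.49, adjusted p = 0.021) passed against ProB, and Gzma (1.57 ± 0.99, adjusted p = 0.24) did not. Granzyme K, Gzmk, set NKmature apart from ProB as well, with 7.90 and 7.88, against 3.26 and 3.48 in ProB and 5.08 and 3.92 in CD4.

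Of the cytotoxic list, 15 of 21 tested members were called higher, none lower and 6 were highest, with a median difference of 2.88. The shares over all genes tested were 13.4% higher, 8.09% lower and 1.42% highest. Gzmc, Gzmd, Gzme, Gzmf and Gzmg lay under the filter level in every group on their brightest probe sets and were not tested. The granzyme inhibitors Serpinb9 (11.09 and 11.02, against 8.87 and 7.96 in ProB) and Serpinb6b (10.84 and 10.81, against 8.61, 8.65 and 8.60 in ETP), which protect the killer cell from its own granzymes, were highest in NKmature. So was Lyst (8.98 and 9.02, against 7.84 and 7.57 in CD4), the lysosomal trafficking protein mutated in beige mice. Ctsw (5.73), the death ligand Fasl (5.68), Nkg7 (4.55), Cst7 (2.88), Ctsc (2.52, which activates granzymes), Stx11 (2.23, a syntaxin of granule release), Tnfsf10 (1.35, TRAIL) and Rab27a (1.32, which docks granules) were called above the mean. Not called were the granule proteoglycan serglycin, Srgn (11.88 and 11.89, difference 0.16 ± 0.12), Unc13d (0.76), Stxbp2 (0.03) and Lamp1 (-0.49). Gzmm (4.40 and 5.39) and Serpinb9b (0.43) were not called either.

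Among secreted factors, the chemokine Xcl1, which attracts cross-presenting dendritic cells, was highest in NKmature at 8.67 and 8.91, against 7.62 and 6.65 in ProB and a mean of 2.94 in CD4. Csf2 (GM-CSF) was dimmer but also highest, at 6.13 and 6.69, against a mean of 5.30 in CLP. Interferon gamma, Ifng, the main cytokine of NK cells, read 6.12 and 6.001 in NKmature, against 8.24 and 8.03 in ProB and 5.77 and 5.70 in CD4. Ifng was called above the mean (2.51 ± 0.47), yet it was lower than in ProB, with a difference of -2.08 ± 0.65 (adjusted p = 0.012, limma with Benjamini-Hochberg adjustment). The chemokines Ccl3 (8.17 and 7.75, against 8.35 and 9.47 in ProB) and Ccl4 (7.06 and 7.27, against 6.66 and 8.18) and lymphotoxin beta, Ltb (10.20 and 10.16, against 10.86 and 11.27 in CD4), were called above the mean without being highest. The myeloid chemokine Ccl9 was called lower (-1.06), and Tnf (-0.42), Tgfb1 (0.65), Ccl6 (0.23) and Osm (0.01) were not called. In all, 7 of 12 members were called higher and 1 lower (median 2.04), against 13.4% and 8.09% of all genes tested.

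Both chains of the interleukin 18 receptor, which primes NK cells for interferon gamma, were highest in NKmature. Il18r1 read 11.65 and 11.57, against 9.95 and 8.46 in ProB and 8.99 and 7.99 in CD4. Il18rap read 10.75 and 10.71, against 8.29, 7.56 and 8.30 in ETP and 7.48 and 7.87 in ProB. Il2rb, the chain through which interleukin 15 keeps NK cells alive, read 9.56 and 9.66, against 7.33 and 7.31 in ProB and 6.61 and 6.36 in CD4. The NKmature arrays exceeded all others for these 3 genes, with differences from the mean of 6.499 ± 0.45, 5.07 ± 0.29 and 5.66 ± 0.21. Il10ra (3.87), Stat4 (3.36, which transmits interleukin 12), Il10rb (2.22), Tgfbr2 (1.91), Il12rb1 (1.74), Jak3 (1.73), Jak1 (1.58), Il27ra (1.54), Ifnar1 (1.34), Il15ra (1.29) and Ifngr1 (1.01) were also called higher. Called lower were the signalling chain of the interferon gamma receptor, Ifngr2 (3.19 and 3.55, against 7.17 and 8.75 in CD4, but 0.30 above the mean with the Xist and Eif2s3y class as a block), Tgfbr3 (-1.42), Stat5a (-1.40) and the feedback inhibitor Cish (-1.12). Counts were 14 higher and 4 lower of 32 (median 0.88), against 13.4% and 8.09% of all genes tested. Not called were Socs3 (1.32), Socs1 (0.92), Il7r (0.84), Ifnar2 (0.78), Il12rb2 (0.70), Tyk2 (0.62), Stat3 (0.47), Jak2 (0.41), Tgfbr1 (0.20), Il21r (0.10), Il4ra (-0.25), Stat5b (-0.29), Socs2 (-0.70) and Il2ra (-0.99).

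S1pr5, the sphingosine phosphate receptor by which NK cells leave bone marrow, was highest in NKmature at 8.33 and 8.52, against 7.31 and 4.44 in ProB and 3.28 and 3.63 in CD4. S1pr1, the receptor by which T and B cells leave lymphoid organs, read 4.69 and 4.52 in NKmature, against 9.60 and 9.26 in CD4. The lymph node homing receptor Ccr7 read 3.82 and 3.83, against 10.72 and 11.13. Thus CD4 arrays were far above NKmature arrays for S1pr1 (-4.82, limma adjusted p = 2.4e-12) and Ccr7 (-7.10, adjusted p = 5.0e-21), and far below them for S1pr5 (adjusted p = 5.4e-13). Cmklr1, the chemerin receptor of NK and plasmacytoid dendritic cells, was the other homing gene highest in NKmature (5.52 and 5.58, against a mean of 4.33 in ProB). The chemokine receptor Cxcr3 (9.90 and 9.71) was shared with ProB (9.63 and 9.80) and CD4 (9.58 and 9.57).

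Itgam of the trafficking and adhesion list lay under the filter level in every group on its brightest probe set and was not tested. Against 13.4% and 8.09% of all genes tested, 14 of the 25 tested members of that list were called higher and none lower (median 1.38). The leukocyte integrin chains Itgax (4.03), Itgal (3.81), Itgb2 (3.15), Itgb7 (2.70), Itgb1 (2.34) and Itga4 (1.23) were among them. Itga2, recognised by the DX5 antibody used to sort mouse NK cells, was called higher from dim values (4.65 and 4.69, against at most 3.94 elsewhere). Cd27, which marks the less mature stage of peripheral NK cells, read 8.82 and 8.75 in NKmature, against 9.51 and 9.60 in CD4 and 6.14 and 6.15 in ProB. Selplg (2.34), Cd48 (1.72) and S1pr4 (1.63) were called higher. Cxcr4 (1.38), Cx3cr1 (0.84), Ccr2 (0.82), Cxcr6 (0.58), Cd69 (0.23), Spn (0.37), Itga1 (0.01), Cd44 (-0.54) and Ccr9 (-1.78) were not called.

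Among all genes tested 13.4% were called higher, 8.09% lower and 1.42% highest. Of the NK transcription factors, 17 of 28 were called higher and none lower (median 1.69), and 4 were highest of all groups. Besides Tbx21 and Eomes these were Id2, the inhibitor of E proteins that all innate lymphoid cells need, and Prdm1 (Blimp1), a factor of terminal lymphocyte differentiation. Id2 read 11.996 and 12.09 in NKmature, against 9.79 and 10.10 in IgM+SP, 9.88 and 9.42 in CD4 and 9.72 and 9.001 in ProB. Prdm1 read 7.98 and 8.21, against 6.17 and 5.41 in CD4 and 3.88 and 4.08 in ProB. For both, NKmature arrays lay above all others, with the smallest difference from any group at 2.10 ± 0.84 for Id2 (IgM+SP, limma adjusted p = 0.044) and 2.30 ± 0.24 for Prdm1 (CD4, adjusted p = 8.8e-10).

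Ets1, needed for NK development, read 10.86 and 10.87 in NKmature, against 10.41 and 10.89 in IgM+SP, 10.45 and 10.50 in CD4 and 7.68 and 8.07 in ProB. It was called higher in NKmature than in ProB (2.99 ± 0.46, adjusted p = 2.8e-06, limma with Benjamini-Hochberg adjustment), and its differences from CD4 (0.39 ± 0.46) and IgM+SP (0.21 ± 0.46) did not pass. Tox, required for NK and CD4 T cell development, read 6.76 and 6.84, against 6.86, 6.35 and 7.02 in ETP and 2.88 and 3.58 in ProB. Nfil3, the factor that starts the NK programme, read 6.08 and 6.29, against 5.17 and 5.26 in ProB, and Gata3 read 6.22 and 6.29, against 6.67 and 6.69 in CD4. Bhlhe40 (4.13), Maf (3.37), Stat4 (3.36), Klf2 (2.89), Ikzf3 (1.98), Irf2 (1.79), Foxo1 (1.59), Runx3 (1.17) and Ikzf1 (1.08) were called above the mean. With the Xist and Eif2s3y class of the arrays as a block Runx3 turned to -0.32. Zeb2, a partner of Tbx21 in maturation, was not called and read 7.12 and 7.13, against 9.11 and 8.50 in ProB. Irf1 (0.99), Smad3 (0.75), Ikzf2 (0.63), Foxo3 (0.60), Hlx (0.11), Elf4 (-0.06), Litaf (-0.24), Id3 (-0.28), Rora (-0.43) and Tox2 (-0.46) were not called.

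Markers of related innate lymphoid cells gave a mixed picture. In that list 4 of 8 tested members were called higher and 1 lower, against 13.4% and 8.09% of all genes tested. Those called higher, Klrg1, Icos (8.67 and 8.51, against 10.26 and 10.15 in CD4), Gata3 and Tnfsf10, are also found in T or NK cells. Il13, Il5 and Arg1 lay under the filter level in every group on their brightest probe sets and were not tested. Cxcr6 (3.58 and 3.72) and Itga1 (3.17 and 3.30), used as markers of type 1 innate lymphoid cells, were dim in NKmature and were not called. Cxcr6 is shared with T cells too, at 7.49 and 7.54 in CD4. The members went both ways, so the list does not tell these cell types apart here. Il17rb, the interleukin 25 receptor chain of type 2 cells, was called lower (3.75 and 3.71, against 7.87 and 7.87 in ProB).

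Lgals3, the sugar-binding protein galectin 3, also belonged to the 12 largest, at 11.32 and 11.41 in NKmature, against 8.76 and 8.07 in ProB and 8.55 and 8.07 in IgM+SP. Several further genes were bright in NKmature and near the bottom of the scale in all other groups, and they are named after their values had been seen. The sialyltransferase St6galnac2 read 8.26 and 8.47, against at most 3.42 on any other array. Wscd2 read 7.79 and 7.51, against at most 3.81. The interferon-inducible GTPase Gbp2b (Gbp1) read 6.88 and 6.64, against at most 3.56. In these 3 genes, as in Klra16, Cd200r4 and the brighter Klra7 probe set, no ProB array came near the NKmature arrays.

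**Figure D3:**
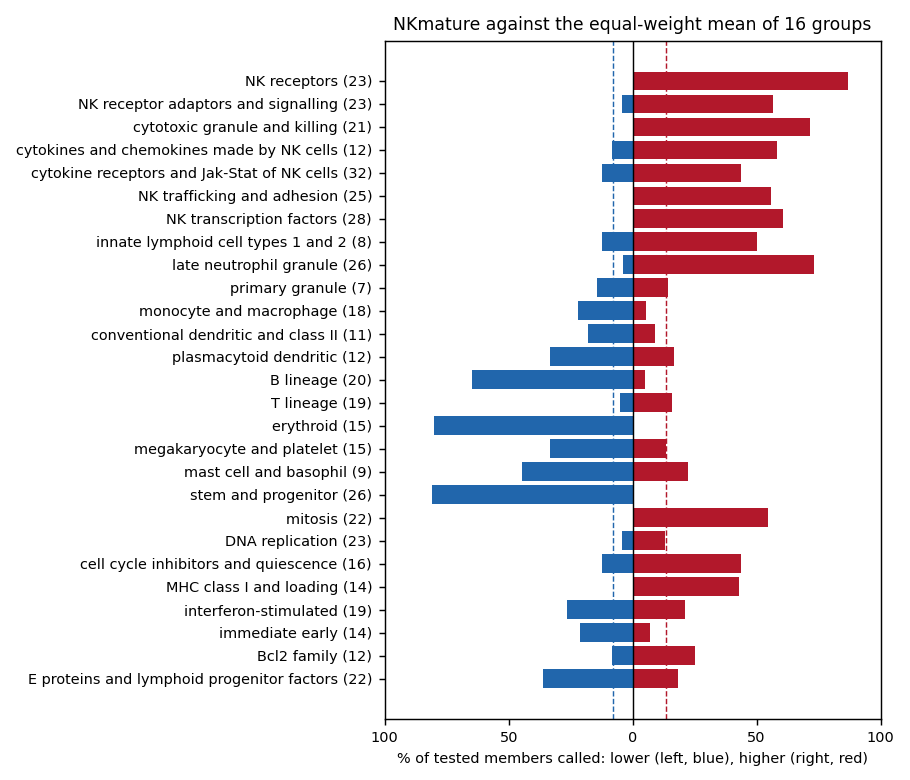
Share of the tested members of each gene list (rows, number tested in brackets) called higher (red, right) or lower (blue, left) in NKmature than in the equal-weight mean of the other 16 groups. Dashed lines mark the shares over all genes tested, 13.4% higher and 8.09% lower, and the NK lists lie to the right while the stem and progenitor, erythroid and B lineage lists lie to the left.

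The genes lowest in NKmature included regulators of stem cells and progenitors. Lmo2, the bridge of the haematopoietic Tal1 and Gata complexes, read 4.33 and 4.45 in NKmature, against values from 5.48 to 12.83 with a median of 10.82 on the other arrays. The tetraspanin Cd81, a partner of the B cell coreceptor, read 3.56 and 3.37, against values from 5.79 to 10.37 with a median of 9.11. Sgms1, the sphingomyelin synthase of the Golgi, read 3.17 and 3.46, against values from 4.11 to 10.87 with a median of 8.48. By the rule for lowest genes, no array of another group came down to the NKmature values of the 3. The next lowest groups were CD4 for Lmo2 (-1.27 ± 0.36, adjusted p = 0.0073, limma with Benjamini-Hochberg adjustment), ProB for Cd81 (-2.94 ± 0.25, adjusted p = 4.4e-12) and CLP for Sgms1 (-2.09 ± 0.45, adjusted p = 0.00018).

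Gata2, the stem cell and mast cell factor that acts with Lmo2, was also lowest (4.69 and 4.13, against at least 5.38 elsewhere). The antiviral genes Trim12a (2.92 and 2.56, against at least 4.83), Rsad2 (viperin, 3.79 and 4.08, against at least 6.36) and Trim34a (4.40 and 4.06, against at least 6.59) belonged to the lowest genes too. The lysosomal protease Ctsl read 3.81 and 3.29 in NKmature, against 10.58 and 12.15 in ProB. The growth factor receptor Igf1r read 4.33 and 4.30, against a mean of 5.50 in PreB, the next lowest group. Prxl2c (5.24 and 5.57, against at least 7.34), the glucosyltransferase Poglut2 (5.27 and 5.44, against at least 6.32) and Cryl1 (4.62 and 4.73, against at least 5.66) complete the 12 largest with Plcg1. The ribosomal gene Rps9, named after its values were seen, was counted as lowest on a probe set where the replicates disagreed (7.66 and 9.78), while another of its probe sets read 11.82 and 11.77 in NKmature and 11.75 and 12.27 in ProB.

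Calls of single genes varied with the probe set. Of the 198 highest genes, 74 had another probe set above the filter level of 3.889. All of these passed 2-fold in the same direction for 35 (47.3%), while 23 (31.1%) had at least 1 of the opposite sign. Of the 50 lowest genes, 35 had another, with all past 2-fold for 7 (20%) and at least 1 of the opposite sign for 8 (22.9%). Among genes called against the mean but not highest or lowest, the shares with an opposite sign were 33.5% of the higher and 23.7% of the lower. For Trim34a the other probe set differed by 1.60 and for Prxl2c by 0.62, in the opposite direction, and for Trim12a by -0.04.

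Stem and progenitor genes were low as a group in NKmature, with 21 of 26 members called lower and none higher (median -2.06). The shares over all genes tested were 8.09% lower and 13.4% higher. Bcl11a, the factor of lymphoid and stem cell fate, read 4.06 and 3.597 in NKmature, against 4.14 and 4.84 in CD4 and 11.06 and 10.65 in ProB. Hoxa9 (-5.00), Sox4 (-3.95), Tal1 (-3.53), Erg (-3.37), Cd34 (-3.15), Meis1 (-2.88) and the cytokine receptor Flt3 (-2.82) followed. The list level was 4.88 and 5.05 in NKmature, against 4.98 and 5.10 in CD4, 5.90 and 6.07 in ProB and 9.66 and 9.86 in LTHSC, so the CD4 group was about as low. Kit was called lower (-1.41) but was not at the bottom, with 6.41 and 6.39 in NKmature, against 3.98 and 2.88 in CD4. Myb (-1.89), Cdk6 (-1.89), Hlf (-2.26), Mycn (-2.23) and Mecom (-1.42) were called lower. Mllt3 (-0.04), Myc (-0.42), Hoxa7 (-0.53), Slamf1 (-0.65) and Nkx2-3 (-0.78) were not called.

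In the list of E proteins and lymphoid progenitor factors, which also holds myeloid, erythroid and stem cell factors, 4 of 22 members were called higher and 8 lower (median -0.64). Over all genes tested 13.4% were called higher and 8.09% lower. The E protein Tcf3 (E2A) read 7.20 and 6.83 in NKmature, against a mean of 9.99 in PreB, and was called lower (-1.05, but 0.43 with the class of the arrays as a block). The other E proteins, Tcf12 (0.70) and Tcf4 (-0.69), were not called. The other members called lower were the B cell factor Ebf1 (-1.90), the myeloid and B cell factor Spi1 (PU.1, -1.56), Bcl11a (-5.48), Myb (-1.89), the erythroid factors Klf1 (-3.35) and Gata1 (-2.60), and Gata2 (-3.03). Called higher were Irf8 (10.29 and 10.43, against 12.65 and 13.46 in ProB), Bcl11b (2.00), Gfi1 (1.86) and Bach2 (1.09). Notch1 (0.97) was not called.

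The defining genes of other mature lineages were mostly dim in NKmature. Cd79a read 3.36 and 3.15, Ms4a1 (CD20) 3.00 and 2.75 and Ebf1 2.54 and 2.62 in NKmature, all under the filter level, against 7.67 and 7.72, 11.92 and 12.30 and 12.001 and 12.07 in IgM+SP. Of the B lineage list 13 of 20 members were called lower and 1 higher (Cd72, 1.40), with a median of -1.17. The count called lower was 8 with a floor on dim values and 6 with the class as a block. Ighm was not called and read 10.42 and 10.32, against 12.30 and 12.45 in CD4 and 12.31 and 12.81 in ProB. In the erythroid list 12 of 15 members were called lower, led by Car1 (3.67 and 3.36, difference -4.07), Ermap (-3.72) and Klf1 (-3.35), and none higher. The equal-weight mean holds erythroid groups such as ProE (list level 10.67, 10.63 and 10.68). The level was 4.42 and 4.39 in NKmature and 4.83 and 5.48 in CD4. Against LMPP arrays with both Xist and Eif2s3y, 2 of 15 erythroid and 4 of 20 B lineage members were called lower (9.81% of all genes). Car2 read 10.05 and 10.15 in NKmature, against 9.92, 9.13 and 9.31 in ETP. Against the equal-weight mean 8.09% of all genes were called lower and 13.4% higher.

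Cd3e read 5.34 and 5.17 in NKmature, against 8.17 and 8.63 in CD4. Cd3g read 4.56 and 4.54, against 11.22 and 10.77, and Cd5 read 2.91 and 2.75, against 10.93 and 10.82. All 3, genes of the T cell receptor complex and its tuning, lay far below CD4, and Cd5 was called lower than the mean (-1.03). Cd28, the T cell costimulator, read 8.11 and 8.27 in NKmature, against 9.33 and 10.31 in CD4, and Icos and the T lineage factor Bcl11b (6.44 and 6.14, against 11.05 and 11.53) were also called higher than the mean. Of the T lineage list 3 of 19 were called higher and 1 lower (median -0.30), shares near the 13.4% and 8.09% of all genes tested.

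Monocyte and macrophage genes were called lower in 4 of 18 members, Klf4 (-2.60), Mpeg1 (-2.35), Csf1r (-1.35) and Ly86 (-1.02, but 0.095 with the class as a block), and higher in 1, Ctss (1.81). The class II chain H2-Aa (7.66 and 7.83, against 13.58 and 13.55 in IgM+SP) and the invariant chain Cd74 (6.16 and 6.03, against 9.61 and 10.08) were not called. Siglech, which defines plasmacytoid dendritic cells, read 4.10 and 4.21 in NKmature, against 11.05 and 11.78 in ProB, and the other 45 arrays went down to 4.01. In the plasmacytoid dendritic list 2 of 12 members were called higher (Irf8 and Lair1, 2.76 and 2.26) and 4 lower, and in the conventional dendritic and class II list 1 of 11 higher (Itgax) and 2 lower (Flt3 and H2-Eb1). Megakaryocyte genes were called lower in 5 of 15 members, led by Vwf (-2.55) and Pf4 (-2.26), and higher in 2, Plek (2.83) and Cd9 (2.10). In the mast cell and basophil list 4 of 9 were called lower, including Cpa3 (-1.58) and Slc18a2 (-1.13), and 2 higher, the proteases Cma1 (1.46) and Mcpt8 (1.16). Over all genes tested 13.4% were called higher and 8.09% lower, and the shares called higher in the plasmacytoid dendritic and megakaryocyte lists lie near the first.

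Late neutrophil granule transcripts, which are made in maturing neutrophils, formed the exception among other lineages. S100a8 read 12.12 and 12.14 in NKmature, against 12.14 and 11.15 in IgM+SP, 5.16 and 10.72 in ProB and 3.95 and 4.91 in CD4. Lcn2, the iron-scavenging lipocalin of specific granules, read 9.90 and 9.97, against 8.76 and 7.82 in IgM+SP, 3.75 and 9.79 in ProB and 3.39 and 3.82 in CD4. The ProB replicates lay far apart for both genes, and the NKmature arrays reached the brightest IgM+SP array for S100a8 and lay above both IgM+SP arrays for Lcn2. Among all genes tested 13.4% were called higher than the mean and 8.09% lower. In the late neutrophil granule list 1 member was called lower, Csf3r (-1.09), the receptor of the neutrophil growth factor. Called higher than the mean were 19 of 26 tested members, and the list median was 2.51. Besides S100a8 (5.64 ± 1.42) they included Lcn2 (5.24 ± 0.92), S100a9 (5.10 ± 1.23), Chil3 (5.01 ± 1.36), lactoferrin, Ltf (4.46 ± 1.04), Ngp (4.41 ± 1.32) and Camp (3.81 ± 0.87). With the Xist and Eif2s3y class of the arrays as a block 7 members were called higher, and Chil3 (-0.35), Ngp (-0.57), Lyz1 (-0.59) and Lyz2 (-0.21) turned. The block's correction of NKmature came from ETP and LMPP replicates. On LMPP replicates 1 to 5 the list level was 4.59, 4.66, 4.61, 5.93 and 5.98, and on ETP replicates 1 to 3 it was 4.38, 4.25 and 4.19. Standard errors of the list members were larger than those of the NK receptors above, and arrays with and without these transcripts stood within single groups. Pglyrp1, a bactericidal granule protein (8.43 and 8.37, against 6.05 and 7.09 in ProB), and Cd177 (6.97 and 7.11, against 3.72 and 6.61), a neutrophil surface protein, were highest in NKmature of all groups. The neutrophil receptors Csf3r (3.76 and 3.699) and Cxcr2 (4.04 and 3.58) were dim in NKmature.

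The mean level of the late neutrophil granule list was 7.45 and 7.50 on the NKmature arrays, 7.34 and 6.81 in IgM+SP, 6.71, 6.54 and 6.56 in GMP and 4.04 and 4.09 in CD4. Within PreB it ranged from 3.82 to 7.46 and within ProB it was 4.52 and 6.94. Transcripts of primary granules, made earlier in the neutrophil path, were not called in 5 of 7 cases, among them Mpo (7.84 and 8.14, against a mean of 13.82 in GMP), Prtn3 (8.03 and 8.05) and Elane (5.96 and 6.51). Nkg7, which cytotoxic lymphocytes also express, was called higher (4.55) and the protease inhibitor Serpinb1a lower (-1.65), with a median of -0.03. With 2 NKmature arrays that both carry the late list, its part in the other NKmature results was not tested. In bulk RNA, fewer cells of a type and less RNA per cell cannot be told apart. Against IgM+SP, whose arrays carry the same list, 4 members were called higher and 2 lower, with a median of 0.18, where 19.4% of all genes were called higher and 9.18% lower.

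**Figure D4:**
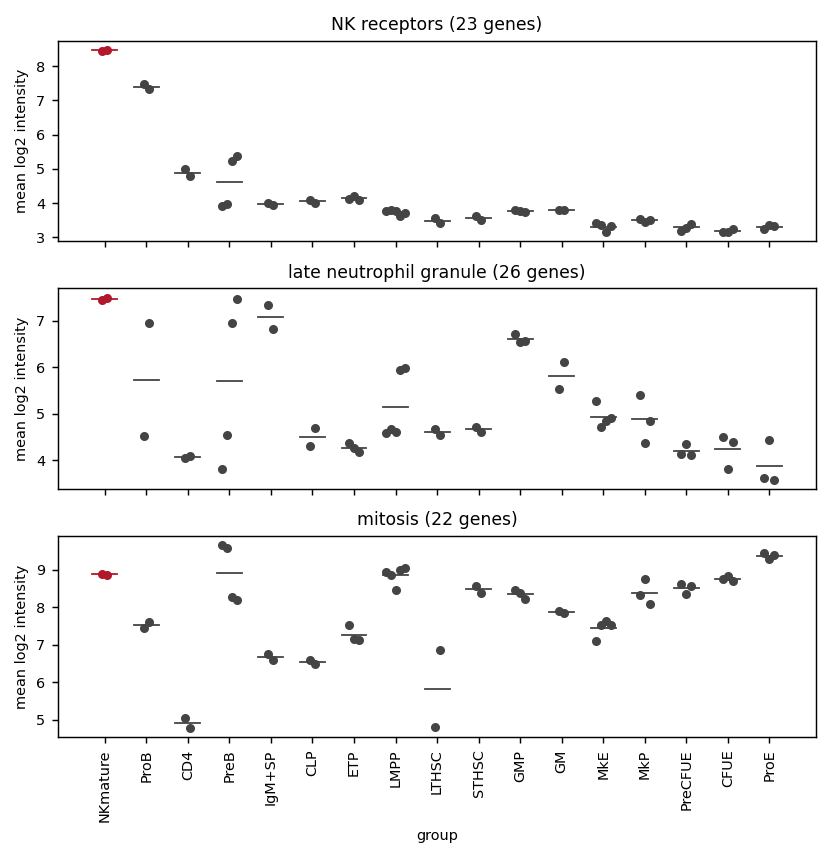
Mean log2 intensity of the NK receptors, late neutrophil granule and mitosis lists on each array (points) with the group mean (line), NKmature in red at the left. NKmature stands above all groups in NK receptors, lies level with the brightest IgM+SP and PreB arrays in late neutrophil granule genes, and lies among LMPP, PreB and CFUE arrays in mitosis genes.

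Mitosis genes were higher in NKmature than in the equal-weight mean of the other groups, but not than in every progenitor group. Of the mitosis list 12 of 22 members were called higher and none lower (median 1.05), and none was highest. The shares over all genes tested were 13.4% higher and 8.09% lower. Against LMPP arrays with both Xist and Eif2s3y, 2 of 22 were called higher and 1 lower (median -0.08), where all genes gave 16.3% and 9.81%. Against such ETP arrays 20 were called higher and none lower (median 1.65), where all genes gave 15.5% and 10.6%. The midbody protein Cep55 read 9.40 and 9.24, survivin, Birc5, read 8.92 and 8.94, and the kinase Aurkb read 8.51 and 8.53 in NKmature, against 4.76 and 3.19, 4.75 and 3.86 and 3.85 and 3.78 in CD4. The proliferation antigen Mki67 read 12.06 and 11.99, against 8.05 and 7.92 in CD4 and a mean of 12.92 in ProE. NKmature arrays were thus well above CD4 arrays and below ProE for Mki67, with list levels of 8.90 and 8.85 in NKmature, 9.44, 9.29 and 9.40 in ProE, 6.76 and 6.603 in IgM+SP and 5.04 and 4.78 in CD4. The count of members called higher was 7 with the mean of all probe sets of a gene, 7 after quantile normalization and 6 when CD4 and IgM+SP were left out of the mean.

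DNA replication genes did not stand out in the same way, with 3 of 23 called higher (Prim1, Rrm2 and Tk1, 1.28, 1.09 and 1.09) and 1 lower (Gins1, -1.09). Over all genes tested 13.4% were called higher and 8.09% lower. The median of the DNA replication list was 0.19, and Pcna read 10.72 and 10.76, against values from 9.38 to 12.61 with a median of 11.17. Inhibitors of the cell cycle and quiescence genes were called higher in 7 of 16 members and lower in 2. The antiproliferative Tob1 was highest of all groups (8.13 and 8.38, against 7.03 and 7.30 in IgM+SP). The inhibitor Cdkn2d (8.004 and 8.13) was bright in NKmature as in CD4 (7.92 and 7.64). Klf2 (2.89), Btg1 (2.36), Rbl2 (2.26), Ccng2 (1.67) and Cdkn1b (1.38, but -0.086 on its most variable probe set) were higher, and Gadd45a (-2.83) and Klf4 were lower.

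Genes of survival, class I presentation and interferon response divided. Bcl2, which interleukin 15 maintains in NK cells, read 9.84 and 10.04 in NKmature, against 9.35 and 9.34 in CD4 and 8.61 and 8.23 in ProB, and the pro-apoptotic Bcl2l11 (Bim) read 11.10 and 11.33, against 10.01 and 9.18 and 10.22 and 8.77. Bak1, an effector of mitochondrial death, was highest in NKmature from modest values (5.88 and 6.09, against at most 5.23). Bmf (-1.29, but 0.063 with the class as a block) was called lower, and the other 8 of 12 members, Mcl1 (0.26) among them, were not called. Class I genes were called higher in 6 of 14 members (median 0.94), or in 11 with the class as a block. They included the immunoproteasome subunit Psmb8 (10.28 and 10.27, against 10.95 and 10.85 in CD4) and H2-D1 (12.53 and 12.57, against 12.68 and 12.82). The shares over all genes tested were 13.4% higher and 8.09% lower.

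Interferon-stimulated genes went both ways, with 4 of 19 called higher and 5 lower (median -0.09), against 13.4% and 8.09% of all genes tested. Lower were Rsad2, Oasl2 (2.43 and 2.02, against 5.77 and 6.69 in ProB), Isg20 (-2.49), Usp18 (-1.44) and Iigp1 (-2.53). Higher were the GTPases Gbp3 (1.47), Ifi47 (12.08 and 12.13, against 12.43 and 12.51 in CD4) and Gbp2 (1.14), and Ifi35 (1.16). Mx1 (-0.46), Ifit1 (0.27), Ifit3 (-0.33) and Irf7 (0.62) were not called. Of immediate early genes, which are switched on within minutes of a signal, Jun (3.25 and 3.41, against 9.58 and 10.05 in ProB), Fos (6.05 and 5.70, against 11.85 and 12.69) and Ier3 (-2.58) were called lower, and with the class as a block none was. Egr2 was called higher (8.08 and 8.06, against 8.78 and 8.63 in CD4 and 4.95 and 4.30 in ProB). Egr3 was not called on its brightest probe set (-0.06) but differed by 4.28 on its most variable one.

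By the correlation of group means, CD4 and ProB were closest to NKmature. Over the 13949 genes the NKmature means correlated with the CD4 means at 0.889 and the ProB means at 0.888, and at 0.784 with those of ProE, the most distant (a description across genes, which share their arrays). Against CD4, 1647 genes were called higher in NKmature (11.8%) and 1199 lower (8.60%). Against ProB, 2009 were higher (14.4%) and 1214 lower (8.70%). By genes called in either direction the fewest were against CD4 (2846), then PreB (3096), GM (3202) and ProB (3223), and the most against CLP (4063 higher, 29.1%, and 1693 lower, 12.1%), with the other groups between. Against GM alone the genes lower in NKmature (1695, 12.2%) outnumbered the higher ones (1507, 10.8%). The share of genes higher in NKmature was 12.8% for PreB, 13.8% for MkE, 13.3% for GMP, 15% for ETP, 15.9% for LMPP, 14.8% for PreCFUE, 19.4% for IgM+SP, 15.4% for CFUE, 20.4% for MkP, 17% for ProE, 16.6% for LTHSC and 19.7% for STHSC. The share lower was 9.36% for PreB, 11% for MkE, 12.2% for GMP, 10.7% for ETP, 9.92% for LMPP, 12.2% for PreCFUE, 9.18% for IgM+SP, 14.6% for CFUE, 10.3% for MkP, 14% for ProE, 15% for LTHSC and 12% for STHSC. All these comparisons share the NKmature arrays.

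The balance of higher and lower calls moved with scaling. After a second quantile normalization it was 2549 higher and 2535 lower against CLP, 2133 and 1589 against IgM+SP, 1607 and 1836 against LMPP, 1788 and 2183 against MkP and 1985 and 2272 against STHSC. The deposited values had given 2709 and 1281 against IgM+SP, 2224 and 1384 against LMPP, 2841 and 1434 against MkP and 2754 and 1672 against STHSC. After it, lower calls also outnumbered higher ones against CFUE, GMP, LTHSC, MkE and PreCFUE.

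**Figure D5:**
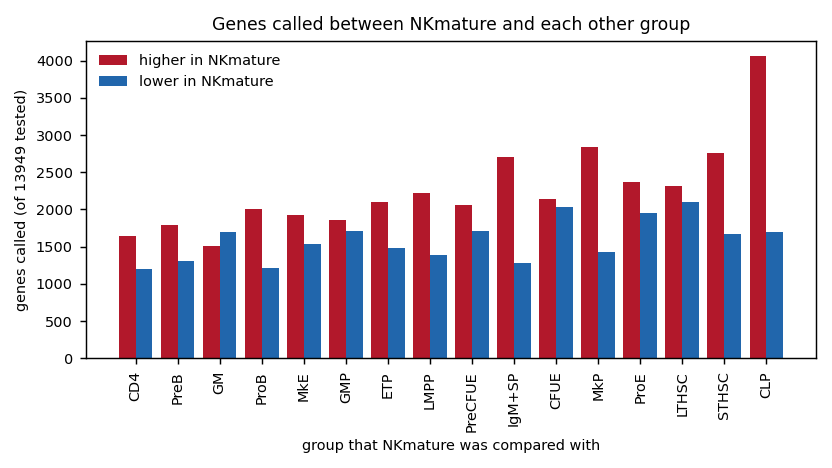
Number of genes (vertical axis, of 13949 tested) called higher (red) or lower (blue) in NKmature than in each other group (horizontal axis, in order of the total called). The totals are lowest for CD4 (1647 higher, 1199 lower) and highest for CLP (4063 higher, 1693 lower).

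Within the class of arrays that carry both Xist and Eif2s3y, NKmature could be set against ETP and LMPP only. Against 2 such ETP arrays 2162 genes were called higher (15.5%) and 1472 lower (10.6%), and 2095 and 1488 with all ETP arrays. Against 3 such LMPP arrays 2269 were called higher (16.3%) and 1369 lower (9.81%), and 2224 and 1384 with all LMPP arrays. In the NK receptors list 19 of 23 members were called higher against those ETP arrays and 20 against those LMPP arrays, and in the late neutrophil granule list 19 and 16 of 26. No array of the other groups was of this class, and its part in the other comparisons was not tested beyond a fit with the class as a block, whose values are given with the alternatives. That fit corrects the NKmature arrays by differences between ETP and LMPP replicates, because both NKmature arrays are of this class. It cannot separate the class from NKmature itself.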

How the data were processed

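The deposited intensity values, 1 per probe set and array on a linear scale, were calculated by the authors with RMA from Affymetrix mouse arrays hybridised with RNA of 2000 cells after dual amplification, per the series' design text. How arrays were scaled to each other is not given in the sources used here. No pseudocount was added before the log2 of the deposited intensity.

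Of the 45101 probe sets 34958 had 1 gene symbol in the platform annotation, 932 had several and 9211 were not listed. The brightest probe set stood for each of 18194 genes (9012 had several). The 13949 genes whose brightest group mean passed 3.889, the median log2 value of the table, were tested. Limma 3.58.1 in R 4.3.3 fitted 17 group means (30 residual degrees of freedom), with two-sided moderated tests and Benjamini-Hochberg adjustment within each comparison. Recovery of planted changes was tested on simulated data. The number of arrays limits the precision.

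Named were the 12 largest differences among the highest and the lowest genes with a plain symbol, the markers, and members of 28 lists (540 genes, 462 tested), those called by size and those of the NK lists not called. Members of the lists of other cell types were named to check the sort. The members and lists were chosen with earlier results of these data known. Exceptions are named as chosen after their values were seen. The titles' replicate numbers do not pair samples: deviations of same-numbered arrays from their group means correlated at -0.05 to 0.04. Arrays were classed by Xist over 7 and Eif2s3y over 5. Alternatives concerned the probe set, filter, floor, normalization, spread, blocks, the groups in the mean and each array left out.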

Additional observations from a re-analysis of the deposited data

Results flagged for a closer look

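Over the gene lists, 4 arrays stood apart from their own group by Dixon's criterion, among 84 combinations of a list and a group of 4 or 5 arrays. Chance meets the criterion in about 1 of 20 combinations, so about as many would be met by chance. The T lineage list mean of MkE replicate 3 was 3.64, against 3.85 on the nearest array. The erythroid list mean of LMPP replicate 4 was 4.70, with 4.88 on the nearest array, and that of PreB replicate 2 was 6.23, with 5.22. The mean of the list of E proteins and lymphoid progenitor factors was 7.08 on LMPP replicate 3, with 7.22 on the nearest array. None of these arrays is an NKmature array, and groups of 2 or 3 arrays were not tested.

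Among 10092 probe sets with no single gene name, which the comparisons did not use, 145 lay above all other arrays on both NKmature arrays with a mean at least 2-fold over the highest other group, and 7 lay below all others. Of the 145, 19 list several genes and 126 are not listed. The probe set 1450551_x_at read 9.57 and 9.79 in NKmature, against 2.50 as the highest mean of another group, a difference of 7.18. The probe set 1452645_x_at read 9.16 and 9.30, against 3.15, a difference of 6.08.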

How the results depend on the processing

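Under the alternatives run, the counts against the equal-weight mean, the counts of highest and lowest genes and the pairwise counts stayed within 1.5 times their value except as follows. With CD4 and IgM+SP left out, 300 genes were highest and 79 lowest. With a floor of 16 before log2, 33 were lowest. With the mean of all probe sets of a gene, 19 were lowest, 731 were called lower than the mean and 1320 higher than ProB. With no 2-fold minimum, 342 were highest, 77 lowest, 3380 higher and 2876 lower than the mean. After quantile normalization again, 2549 were higher than CLP, and 1788 were higher and 2183 lower than MkP. With the stricter filter, 1022 were lower than CLP. The replicate block (titles' numbers) gave 206 highest and 48 lowest genes, 198 and 47 of them shared, and moved none of 36 counts. Chosen after seeing the data, the Xist and Eif2s3y class as a block gave 2638 genes higher than CD4, 2883 than GM, 3283 than MkE and 3153 than PreCFUE, and of its 221 highest and 60 lowest genes 130 and 35 were shared. Also chosen then, the most variable probe set gave 273 highest genes and leaving out IgM+SP 208. The causes were not tested.

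Genes whose sign turned were Bub1 (-0.12) and Egr3 (2.11) with the mean of probe sets, and Cdkn1b (-0.086), Egr3 (4.28), Klra7 (-0.16) and Lat2 (1.02) with the most variable one. With the class as a block they were Bmf (0.063), Bst2 (0.075), Ccl6 (-1.45), Cd14 (-1.41), Cd79a (0.24), Chil3 (-0.35), Fcrla (0.17), Fn1 (-1.69), H2-DMa (1.61), H2-K1 (1.56), Ifngr2 (0.30), Ikzf2 (-1.30), Klra8 (-1.97), Ly86 (0.095), Lyz1 (-0.59), Lyz2 (-0.21), Ngp (-0.57), Runx3 (-0.32) and Tcf3 (0.43).

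Leaving out each array in turn gave 1789 to 1895 genes higher and 1061 to 1138 lower than the mean, 171 to 200 highest and 38 to 51 lowest, and moved no count by over 1.5 times. Pair by pair the counts of genes higher in NKmature were 1333 to 1690 for CD4, 2040 to 2190 for CFUE, 3820 to 4073 for CLP, 1905 to 2110 for ETP, 1299 to 1532 for GM, 1681 to 1890 for GMP, 2437 to 2726 for IgM+SP, 2104 to 2268 for LMPP, 1939 to 2594 for LTHSC, 1782 to 2011 for MkE, 2614 to 3068 for MkP, 1632 to 1914 for PreB, 1920 to 2130 for PreCFUE, 1707 to 2033 for ProB, 2221 to 2378 for ProE, 2245 to 2959 for STHSC. Those of genes lower were 948 to 1231 for CD4, 1913 to 2045 for CFUE, 1669 to 1872 for CLP, 1340 to 1493 for ETP, 1453 to 1711 for GM, 1560 to 1805 for GMP, 1124 to 1293 for IgM+SP, 1309 to 1428 for LMPP, 1937 to 2141 for LTHSC, 1420 to 1588 for MkE, 1393 to 1478 for MkP, 1159 to 1400 for PreB, 1580 to 1788 for PreCFUE, 1067 to 1263 for ProB, 1821 to 1962 for ProE, 1527 to 1689 for STHSC. The limits are 2 NKmature arrays, dim values without a known background level, and probe sets of a gene that differ.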
